A study of Mus musculus with 8 samples.

Results

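The genes described here are 39 that serve the folding, membrane passage and quality control of secreted proteins in the endoplasmic reticulum (ER) of the lactating mouse mammary gland. They were chosen by name for their roles, with earlier results of these data known. An array probe belonged to a member where its accession mapped to the member's symbol. Of the 39 genes, 38 had a probe and all 38 were tested, among 14135 genes tested and 18749 genes with a probe. The remaining member, Pdia3, was not analysed here. The samples were No. 4 mammary glands of female C57/Bl6 mice at lactation day 1, from 4 wild-type (WT) dams and 4 dams of a Th-POK knockout (KO) line. The KO line lacks the gene Zbtb7b, which encodes the zinc finger factor Th-POK, and the methods name no tissue to which the deletion is restricted. No treatment is named for either genotype, and the methods say only that the females were matched for age. RNA of each dam was hybridised to a one-colour Agilent array of its own. Since RNA came from whole glands, fewer cells of a type and less RNA per cell cannot be told apart. All values below are log2 signals after quantile normalization, and a gene is called where limma gave an adjusted p under 0.05.

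Proteins bound for secretion enter the ER through the Sec61 translocon, lose their signal peptide to signal peptidase, and fold with the help of chaperones, lectins and disulfide isomerases. Chains that fail to fold are returned to the cytosol and degraded, a route called ER-associated degradation (ERAD). The sensors IRE1 (Ern1), PERK (Eif2ak3) and ATF6 watch the load of unfolded protein, and the programme they start, the unfolded protein response (UPR), raises the genes of folding and ERAD. Alveolar cells make large amounts of milk protein through this route, and secretory cells are known for high expression of its genes.

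Many UPR target genes carry short promoter motifs that ATF6 and the spliced form of XBP1 are known to bind. The promoter windows of RefSeq (GRCm38.p6, 250 bases before to 50 bases after each start) were searched on both strands for 3 of them: the ER stress response element ERSE, spelled CCAAT, 9 bases of any kind and CCACG; ERSE-II, spelled ATTGG, 1 base and CCACG; and the UPRE core TGACGTG. Of the 38 members tested and Pdia3, 31 had a window. ERSE matched in 9 of these 31 windows and in 0.119% of all 32851 windows. ERSE-II matched in 2 of the 31 and in 0.0365% of all windows. The UPRE core matched in 1 member, Hspa5, and in 2.01% of all windows. The 2 ERSE matches of Hsp90b1 and the 2 different motifs of Hspa5 shared no base. The ERSE and ERSE-II matches are shown because the members that hold them include the main lumenal chaperones described below. Each is written in the direction in which the motif is spelled, with the strand of the genome it lies on, and capitals mark the fixed bases.

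Hspa5 ERSE (chr2:34772025-34772043, forward strand): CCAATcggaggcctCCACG
Hsp90b1 ERSE (chr10:86705638-86705656, reverse strand): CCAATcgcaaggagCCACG
Hsp90b1 ERSE (chr10:86705533-86705551, forward strand): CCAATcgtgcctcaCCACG
Dnajb11 ERSE-II (chr16:22857852-22857862, forward strand): ATTGGcCCACG
Dnajc3 ERSE (chr14:118937827-118937845, forward strand): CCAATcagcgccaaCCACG
Creld2 ERSE (chr15:88819520-88819538, reverse strand): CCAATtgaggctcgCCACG
Calr ERSE (chr8:84847075-84847093, forward strand): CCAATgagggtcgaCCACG
Canx ERSE (chr11:50325800-50325818, reverse strand): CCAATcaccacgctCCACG
Pdia6 ERSE (chr12:17266491-17266509, forward strand): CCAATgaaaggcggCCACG
Herpud1 ERSE-II (chr8:94386377-94386387, forward strand): ATTGGgCCACG
Syvn1 ERSE (chr19:6046532-6046550, forward strand): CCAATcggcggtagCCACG
Derl3 ERSE (chr10:75893242-75893260, reverse strand): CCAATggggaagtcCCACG

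The match of Dnajb11 lay just after the start of its gene, and all others lay before the start. The 250 bases before the start of 4 members follow, since results turn on these genes. Hspa5 holds an ERSE and a UPRE core, Dnajc3 was called under every alternative that was run, and Derl3 and Sdf2l1 had the largest log2 differences of the 38 members. They are written along the strand of the gene, with the fixed bases of each match in capitals. In Derl3 the match lies on the other strand and so reads as its reverse complement, and in Sdf2l1 the searched letters were not in this window.

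Hspa5 (chr2:34771840-34772089, forward strand): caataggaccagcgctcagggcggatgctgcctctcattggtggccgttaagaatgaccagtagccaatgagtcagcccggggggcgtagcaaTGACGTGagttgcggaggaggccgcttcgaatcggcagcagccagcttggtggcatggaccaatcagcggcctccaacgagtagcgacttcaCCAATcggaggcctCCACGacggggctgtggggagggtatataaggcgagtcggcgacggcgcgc
Dnajc3 (chr14:118937682-118937931, forward strand): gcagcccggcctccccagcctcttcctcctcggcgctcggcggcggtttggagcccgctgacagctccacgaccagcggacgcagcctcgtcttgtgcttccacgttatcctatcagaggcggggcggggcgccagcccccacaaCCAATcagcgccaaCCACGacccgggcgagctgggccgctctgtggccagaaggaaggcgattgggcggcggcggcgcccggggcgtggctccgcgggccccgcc
Derl3 (chr10:75893148-75893397, forward strand): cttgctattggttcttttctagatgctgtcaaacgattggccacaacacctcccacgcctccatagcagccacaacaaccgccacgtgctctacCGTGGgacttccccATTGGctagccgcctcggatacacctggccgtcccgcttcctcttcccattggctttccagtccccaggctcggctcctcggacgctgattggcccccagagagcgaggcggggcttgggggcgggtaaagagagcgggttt
Sdf2l1 (chr16:17132384-17132633, reverse strand): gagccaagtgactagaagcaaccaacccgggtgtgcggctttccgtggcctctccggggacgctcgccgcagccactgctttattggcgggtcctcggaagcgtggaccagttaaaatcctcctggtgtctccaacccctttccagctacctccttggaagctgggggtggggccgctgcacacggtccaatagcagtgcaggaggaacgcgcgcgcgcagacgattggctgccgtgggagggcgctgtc

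**Figure D1:**
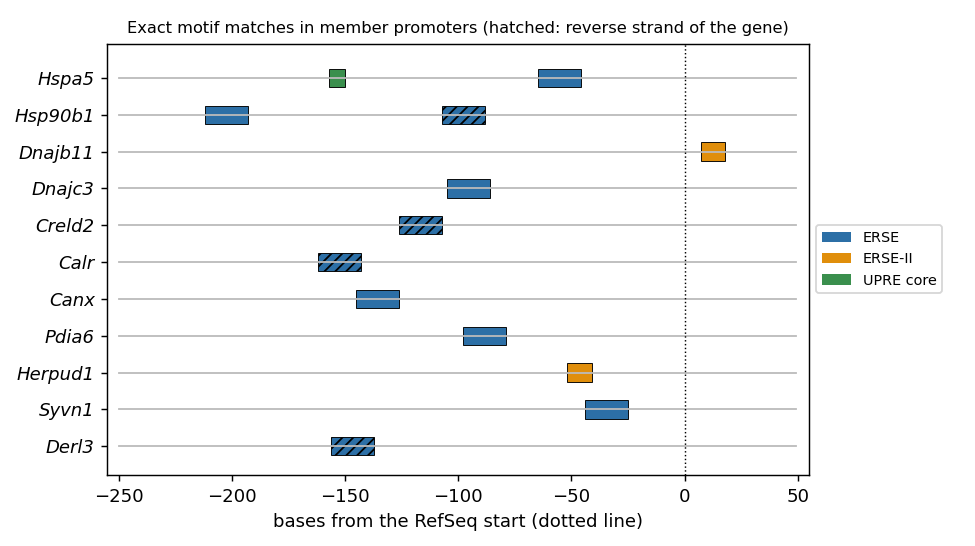
Positions of the motif matches in the promoters of the 11 members with a match. The horizontal axis gives bases from the RefSeq start, each grey line is one 300-base window, colours give the motif and hatching a match on the reverse strand of the gene. In 10 of the 11 members every match lies before the start.

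Members with and without an ERSE or ERSE-II match are described here by their log2 differences, with no test. The 11 members with a match had a median log2 difference (KO minus WT) of -0.78, ranging from -1.502 to -0.11, and 3 of them were called lower. The 19 tested members whose window held neither had a median of -0.37, ranging from -1.59 to 0.24, and 5 of them were called lower. Both sets therefore held called genes, and no match says only that these letters were not in this window. The sets also differ in role. No searched gene of the translocon, of its associated proteins or of signal peptidase held a match, and many of the 19 are such genes. Those roles had small medians, -0.33 for translocon and associated genes and -0.40 for signal peptidase. Motif and role can therefore not be told apart in these medians. Hyou1, Manf, Atf6, Derl1, Sec61a1, Ssr2, Spcs3 and Sec11c had no window and were not searched.

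Zbtb7b checked the genotype labels. Its log2 signals were 9.90, 10.42, 10.13 and 10.23 on the WT arrays and 1.55, 1.56, 1.65 and 1.598 on the KO arrays, where it was not above background on any array. The KO signal was lower by at least 81.5-fold (adjusted p = 5.70e-09). This is a bound, taken against the dimmest probes that Agilent's software still marked as well above background on each KO array. Per array, from 66.8% to 75.3% of probes exceeded background, 0 spots were saturated, and all 38 members were well above background on all 8 arrays. The WT arrays shared one slide and the KO arrays a second one, so slide and genotype cannot be told apart. Precision is limited by the number of arrays.

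Most of the ER genes had lower means in the KO glands than in the WT glands. Of the 38 members, 36 had a lower mean and 2 a higher mean in the KO glands, and the median log2 difference was -0.53, against -0.02 over all genes tested. By the test, 11 members were lower, where 8.94% of all genes tested were called lower. No member (0) was called higher by limma, where 7.53% of all genes tested were, 0 were higher at an unadjusted p under 0.05, and 0 were called higher under any of the 15 alternatives. At an unadjusted p under 0.05, 23 members were lower. The share of all genes at this unadjusted cut is not given here, so the unadjusted counts here and below are description only. In 11 members all KO arrays lay below all WT arrays, where 12.9% of all genes did so, and in 0 members did all KO arrays lie above, where 11.1% of all genes did so. The 11 called members were the chaperones and cochaperones Sdf2l1, Hyou1, Manf, Dnajc3 and Dnajb11, the lectin Calr, the sensor Eif2ak3, the ERAD genes Edem1 and Derl2, the translocon partner Ssr1 and the signal peptidase subunit Spcs3.

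**Figure D2:**
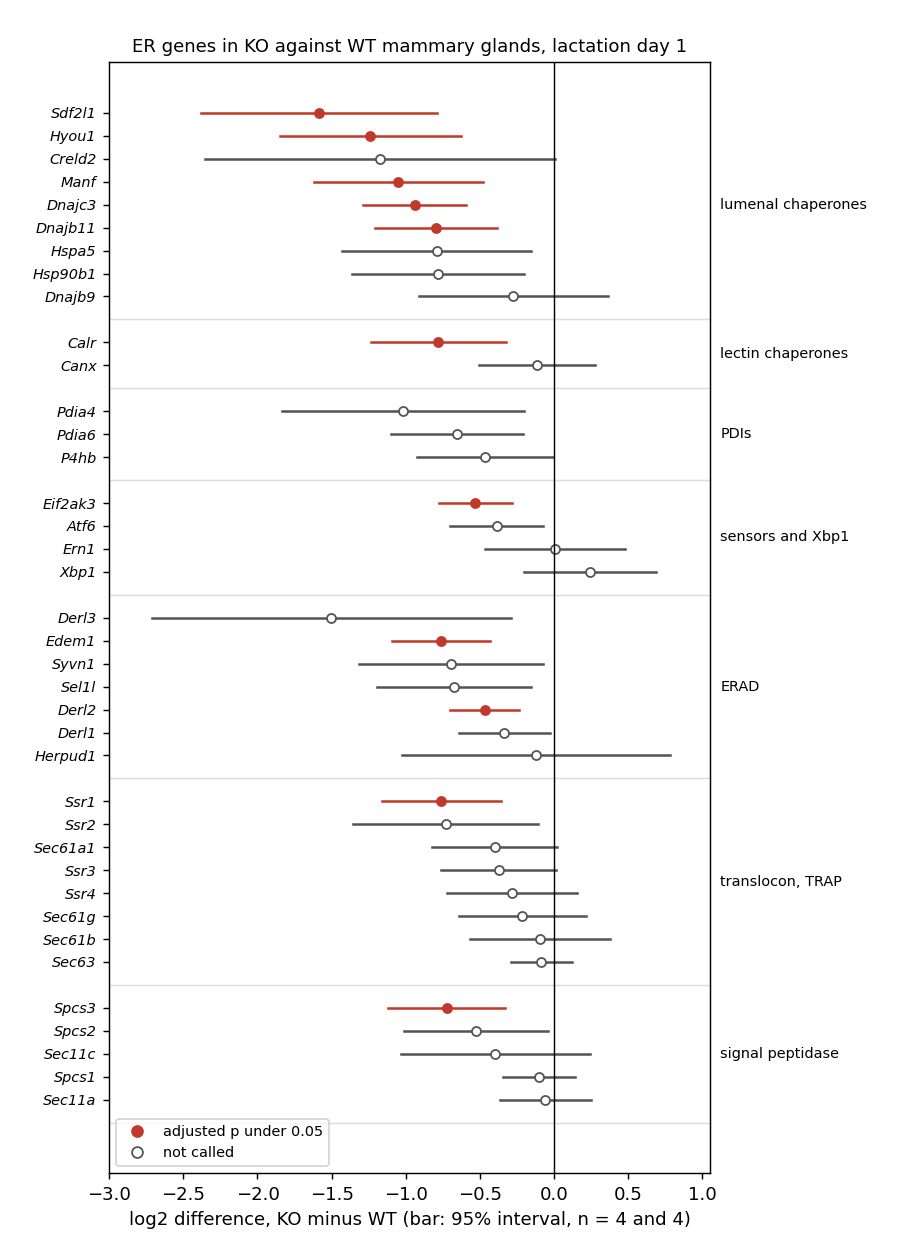
Log2 difference (KO minus WT, horizontal axis) of the 38 members tested, grouped by role, with 95% intervals from limma (4 WT and 4 KO arrays). Filled red points mark the 11 members with an adjusted p under 0.05; 36 points lie below 0.

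The count of called members depended on single arrays and on the replicate numbers. The WT and KO arrays carry the same numbers, and with that number fitted as a block 21 members were called lower, where 10.8% of all genes were. Leaving out WT replicate 4 gave 20 members called, where 7.09% of all genes were. Scaling to the 75th percentile gave 14 and normexp 13, where 10.2% and 8.36% of all genes were. The count fell to 3 without WT replicate 2 or WT replicate 3, to 3 without KO replicate 2, and to 2 without KO replicate 1 or KO replicate 3. In these 5 fits the share of all genes called lower was also small, between 1.74% and 3.61%. Dnajc3 and Edem1 were called in every fit that left out an array and under each of the 15 alternatives, with adjusted p up to 0.0412 and 0.0496. The other called members each lost their call without some arrays. Hyou1, Dnajb11, Manf, Derl2, Ssr1 and Spcs3 did so without WT replicate 2 or 3 or KO replicate 1, 2 or 3 (adjusted p up to 0.0816), and Sdf2l1 without WT replicate 2 or 3 or KO replicate 1 or 3 (adjusted p up to 0.0662). Calr did so without WT replicate 2 or 3 or any KO array (adjusted p up to 0.0946) and also without the filter (adjusted p = 0.0527), and Eif2ak3 without KO replicate 1, 2 or 3 (adjusted p up to 0.0556). With the plain test of the methods Dnajc3, Eif2ak3, Edem1 and Derl2 kept their call and the other 7 lost it. Direction moved less: 33 of the 38 members were lower in the KO glands under all alternatives.

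Among the 9 lumenal chaperones and their partners, all 9 were lower in the KO glands and 5 were called, with a median log2 difference of -0.94. Sdf2l1, a partner of the chaperone BiP that is induced by the UPR, had log2 signals of 12.54, 13.13, 13.26 and 11.58 on WT arrays 1 to 4 and of 10.697, 11.27, 10.98 and 11.22 on KO arrays 1 to 4. It was low on every KO array and, among the WT arrays, lowest on replicate 4, with no overlap between genotypes. Its log2 difference was -1.59 ± 0.35 (standard error, n = 4 and 4), or 3.001-fold lower (adjusted p = 0.0233).

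Hyou1, a large chaperone of the ER that also serves as nucleotide exchange factor for BiP, gave 12.38, 13.02, 12.88 and 11.68 in WT glands and 11.22, 11.21, 11.35 and 11.24 in KO glands. The KO arrays lay within a narrow range below every WT array, WT replicate 4 being nearest to them. The log2 difference of Hyou1 was -1.24 ± 0.27 (standard error, adjusted p = 0.0224). Manf, a secreted factor that is retained with BiP and released under ER stress, gave 13.69, 13.90, 14.23 and 12.99 in WT and 12.72, 12.37, 12.88 and 12.64 in KO glands. Its genotypes did not overlap, and WT replicate 4 lay nearest to the KO arrays. Manf differed by -1.05 ± 0.25 (standard error, adjusted p = 0.0292).

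Dnajc3 and Dnajb11 are J-domain cochaperones that pass substrates to BiP. Dnajc3 gave 13.54, 13.95, 14.14 and 13.55 in WT glands and 12.71, 12.91, 12.90 and 12.89 in KO glands. Here WT replicate 4 stood with the other WT arrays, well above all KO arrays. Its log2 difference was -0.94 ± 0.15 (standard error, adjusted p = 0.0117), the smallest adjusted p among the members. Dnajb11 gave 13.44, 13.83, 13.85 and 13.06 in WT and 12.76, 12.60, 12.81 and 12.84 in KO glands. Its genotypes did not overlap and differed by -0.80 ± 0.18 (standard error, adjusted p = 0.0259).

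The most abundant chaperones in textbook accounts, BiP (Hspa5) and GRP94 (Hsp90b1), did not pass the test in the main comparison and passed it under some alternatives. Hspa5 gave 15.83, 15.77, 16.37 and 14.96 in WT glands and 14.96, 14.74, 15.32 and 14.74 in KO glands. WT replicates 1 to 3 lay above all KO arrays, while WT replicate 4 overlapped them. The log2 difference was -0.79, with a 95% interval from -1.43 to -0.15 (adjusted p = 0.0815). With the replicate block the adjusted p was 0.0320, and without WT replicate 4 it was 0.0264 at a log2 difference of -1.04. Scaling to the 75th percentile gave -0.94 (adjusted p = 0.0471). Hsp90b1 gave 15.70, 15.75, 16.13 and 14.87 in WT and 14.84, 14.59, 15.14 and 14.75 in KO glands, again with WT replicate 4 among the KO arrays. Its log2 difference was -0.78, with an interval from -1.37 to -0.20 (adjusted p = 0.0649). The adjusted p of Hsp90b1 was 0.0414 with the block, 0.0200 without WT replicate 4, 0.0370 with 75th percentile scaling and 0.0462 with normexp. Both were lower in the KO gland in 4 of 4 pairs of the same number.

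Creld2, a UPR-induced protein with disulfide isomerase activity, differed by -1.18 but varied most among the lumenal genes, with an SD of 1.11 on WT arrays and 0.51 on KO arrays (adjusted p = 0.138). It was called with the block (adjusted p = 0.0325) and without WT replicate 4 (adjusted p = 0.0292). Dnajb9, another J-domain cochaperone, differed by -0.28 (95% interval from -0.91 to 0.36, adjusted p = 0.507), and a second probe of this gene gave -0.66. Across the 20 members with more than 1 probe above background, 0 had probes of opposite sign.

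**Figure D3:**
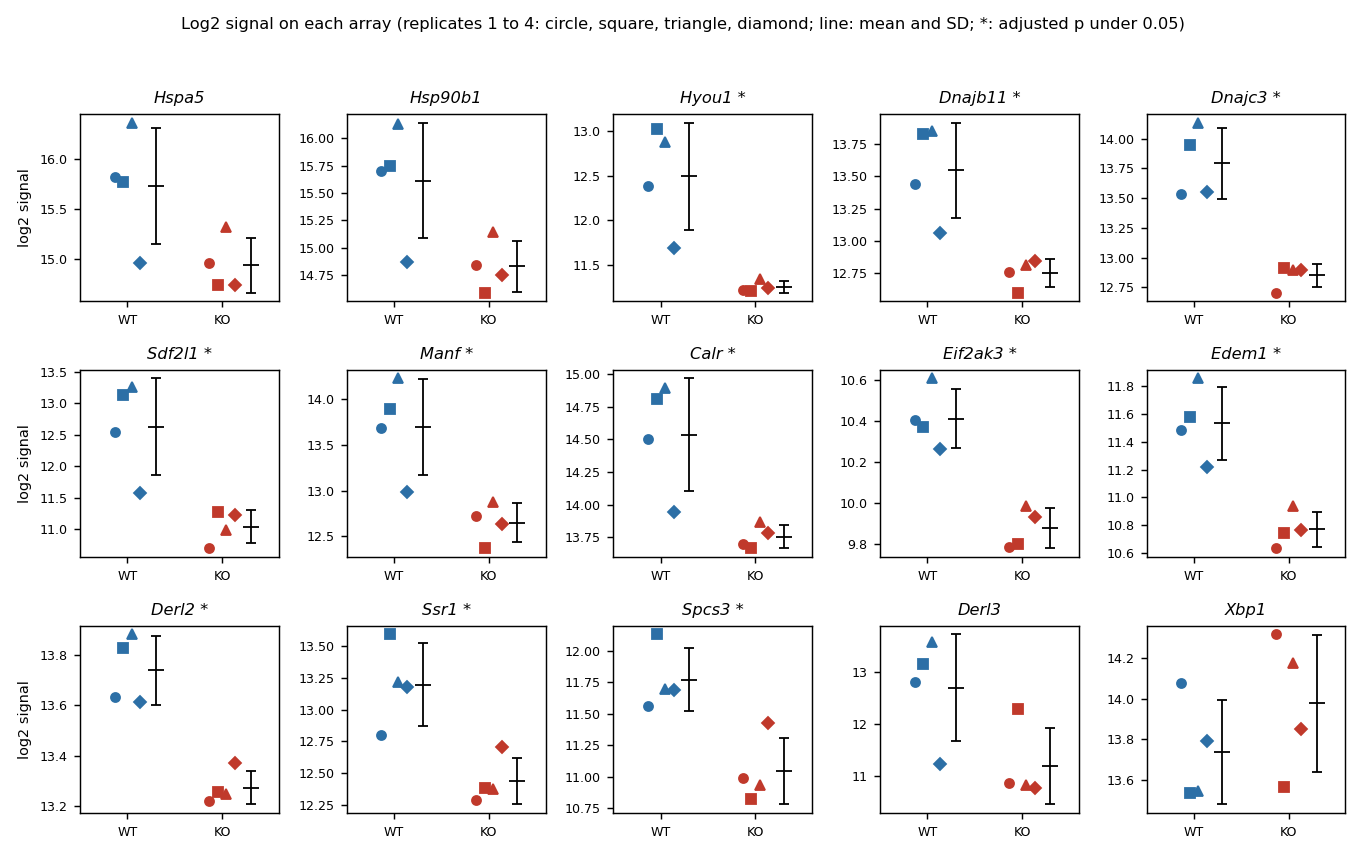
Log2 signal (vertical axes, each with its own range) of 15 members on each WT (blue) and KO (red) array; symbols give the replicate number, lines the mean and SD of 4 arrays, and an asterisk an adjusted p under 0.05. In Hspa5, Hsp90b1, Hyou1, Sdf2l1, Manf, Calr and Derl3 WT replicate 4 is the lowest WT array, while in Xbp1 the KO mean is the higher one.

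The lectin chaperones hold glycoproteins during folding, calreticulin (Calr) in the lumen and calnexin (Canx) in the membrane. Calr gave 14.50, 14.81, 14.89 and 13.95 in WT glands and 13.70, 13.67, 13.87 and 13.79 in KO glands. All KO arrays lay below all WT arrays, WT replicate 4 only just above them. Calr differed by -0.78 ± 0.20 (standard error, adjusted p = 0.0349). Canx differed by -0.11, with a 95% interval from -0.51 to 0.28 (adjusted p = 0.666), so a difference of the size of that of Calr lay outside its interval. The difference between Calr and Canx was not tested.

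Disulfide isomerases form and shuffle the disulfide bonds of new proteins. Of the 3 tested, all 3 were lower and 0 were called by limma, while at an unadjusted p under 0.05 all 3 were lower, and their median log2 difference was -0.65. Pdia4 gave 10.55, 10.82, 11.31 and 9.45 in WT and 9.80, 9.27, 9.68 and 9.31 in KO glands. WT replicate 4 lay among the KO arrays and the other WT arrays above them. Pdia4 differed by -1.02 (95% interval from -1.83 to -0.20, adjusted p = 0.0805), and without WT replicate 4 by -1.38 (adjusted p = 0.0181). Pdia6 differed by -0.65 (adjusted p = 0.0536) and P4hb by -0.47 (adjusted p = 0.131). With the replicate block the adjusted p was 0.0468 for Pdia6, 0.0452 for P4hb and 0.0505 for Pdia4. Without WT replicate 4 it was 0.0171 for Pdia6.

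The sensors of the UPR and the factor Xbp1 took no common direction: 2 were lower and 2 higher, with a median log2 difference of -0.19. Eif2ak3 encodes PERK, the kinase that slows translation when unfolded protein accumulates. It gave 10.40, 10.37, 10.61 and 10.26 in WT glands and 9.79, 9.80, 9.99 and 9.93 in KO glands. The genotypes were well apart, WT replicate 4 included. Its log2 difference was -0.53 ± 0.11 (standard error, adjusted p = 0.0196).

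Atf6, the sensor that is cut in the Golgi to release a transcription factor, gave 10.31, 10.37, 10.52 and 9.96 in WT and 10.03, 9.98, 9.81 and 9.80 in KO glands. Only WT replicate 4 overlapped the KO arrays. Atf6 differed by -0.39 (95% interval from -0.70 to -0.07, adjusted p = 0.082, or 0.0345 without WT replicate 4).

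Ern1, which encodes IRE1, the endonuclease that splices Xbp1 mRNA, gave 8.61, 8.55, 8.76 and 7.90 in WT glands and 8.79, 8.20, 8.53 and 8.33 in KO glands. The genotypes overlapped throughout, and the log2 difference was 0.01 (95% interval from -0.47 to 0.48, adjusted p = 0.987). Xbp1 gave 14.08, 13.53, 13.54 and 13.79 in WT and 14.32, 13.56, 14.17 and 13.85 in KO glands. The ranges overlapped, yet the KO array was the higher one in 4 of 4 pairs. Its log2 difference was 0.24 (95% interval from -0.20 to 0.69, adjusted p = 0.402, or 0.236 with the replicate block). The probe gives the level of Xbp1 mRNA, and the share that was spliced was not measured.

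All 7 ERAD genes were lower in the KO glands and 2 were called, with a median log2 difference of -0.67. Edem1, a lectin that hands misfolded glycoproteins to degradation, gave 11.49, 11.58, 11.85 and 11.22 in WT glands and 10.63, 10.74, 10.94 and 10.76 in KO glands. Every KO array lay below every WT array. Edem1 differed by -0.76 ± 0.15 (standard error, adjusted p = 0.0172). Derl2, one of the derlins that take part in moving proteins out of the ER membrane, gave 13.63, 13.83, 13.88 and 13.61 in WT and 13.22, 13.25, 13.25 and 13.37 in KO glands. Both genotypes had little spread and did not overlap. Derl2 differed by -0.47 ± 0.10 (standard error, adjusted p = 0.0232), and when the log2 values of its probes were averaged it was not called.

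Derl3, a derlin induced by the UPR, had the largest difference of the ERAD genes and the widest spread. It gave 12.81, 13.16, 13.58 and 11.25 in WT glands and 10.87, 12.29, 10.85 and 10.78 in KO glands. WT replicate 4 was low and KO replicate 2 high, so the genotypes overlapped. The log2 difference was -1.502 (95% interval from -2.71 to -0.29, adjusted p = 0.0813, or 0.0460 with the block and 0.0268 without WT replicate 4). The summed signal of the plasma cell and B cell markers was 3398, 5974, 5667 and 3033 on WT replicates 1 to 4 and 3961, 5278, 5858 and 3993 on KO replicates 1 to 4. Most of this sum was 1 gene, Jchain. Its log2 signals were 10.95, 12.02, 11.93 and 10.86 in WT and 11.10, 11.78, 11.98 and 11.04 in KO glands. WT replicates 1 and 4 were thus the lowest WT arrays for Derl3 and for this sum. They were also the lowest for the mean of the lumenal chaperones (13.76 and 12.99) and for the summed T cell markers (573 and 544). Among the KO arrays the plasma cell and B cell sum was highest on replicate 3 and Derl3 on replicate 2. The part of such cells in the Derl3 values was not tested. Sel1l and Syvn1, the scaffold and the ubiquitin ligase of the HRD1 complex, differed by -0.67 (adjusted p = 0.0719) and -0.69 (adjusted p = 0.106), and with the block both were called (adjusted p = 0.0332 and 0.0457), as they were without WT replicate 4 (adjusted p = 0.0441 and 0.0383). Derl1 differed by -0.33 (adjusted p = 0.113) and was called only without KO replicate 4 (adjusted p = 0.0367). Herpud1, a UPR target that recruits the HRD1 complex, differed by -0.12, with a 95% interval from -1.03 to 0.78 (adjusted p = 0.848).

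The 8 translocon and translocon-associated (TRAP) genes were all lower in the KO glands, by less: their median log2 difference was -0.33 and 1 was called. Ssr1, the alpha subunit of TRAP, gave 12.80, 13.59, 13.22 and 13.18 in WT and 12.29, 12.39, 12.37 and 12.71 in KO glands. The lowest WT array lay just above the highest KO array. Ssr1 differed by -0.76 ± 0.18 (standard error, adjusted p = 0.0268). Ssr2, the beta subunit, differed by -0.73 (adjusted p = 0.0948, or 0.0307 with the block and 0.0408 without WT replicate 1). Sec61a1, which forms the channel itself, gave 14.96, 15.64, 15.21 and 15.25 in WT glands and 14.59, 14.77, 14.83 and 15.26 in KO glands. KO replicate 4 reached the WT level and the other KO arrays lay below all WT arrays. Sec61a1 differed by -0.40 (95% interval from -0.82 to 0.02, adjusted p = 0.155). The other 5 genes of this role differed by between -0.37 (Ssr3) and -0.09 (Sec63) and were not called. For Sec63, which couples the channel to BiP, the 95% interval of the brightest probe ran from -0.29 to 0.12. Other probes of Sec63 gave -0.44, outside this interval, and -0.06.

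Signal peptidase cuts the signal peptide from the entering chain. Of its 5 genes all 5 were lower and 1 was called, with a median log2 difference of -0.40. Spcs3, one of its subunits, gave 11.56, 12.13, 11.70 and 11.69 in WT and 10.99, 10.83, 10.94 and 11.43 in KO glands. There was no overlap, although KO replicate 4 came near the lowest WT array. Spcs3 differed by -0.73 ± 0.17 (standard error, adjusted p = 0.0287). Spcs2 differed by -0.53 (adjusted p = 0.113), Spcs1 by -0.10 (adjusted p = 0.534) and the catalytic subunits Sec11c and Sec11a by -0.40 (adjusted p = 0.335) and -0.06 (adjusted p = 0.776). Sec11c was called with the block (adjusted p = 0.0448).

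The arrays of a genotype ranked differently for the folding genes than for the translocation genes. In 8 of the 9 lumenal chaperones WT replicate 3 was the highest WT array, and in 8 of the 9 WT replicate 4 was the lowest. The ERAD genes had the same order, with WT replicate 3 highest in 6 and WT replicate 4 lowest in 6 of 7 genes. In all 8 translocon and TRAP genes, by contrast, WT replicate 1 was lowest, and WT replicate 2 was highest alone in 7 and level with WT replicate 4 in Ssr4. Among the KO arrays, replicate 3 was highest in 6 of the 9 lumenal chaperones and replicate 4 in 7 of the 8 translocon and TRAP genes. These orders are a description of 4 arrays a genotype, and genes of a list are not replicates.

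**Figure D4:**
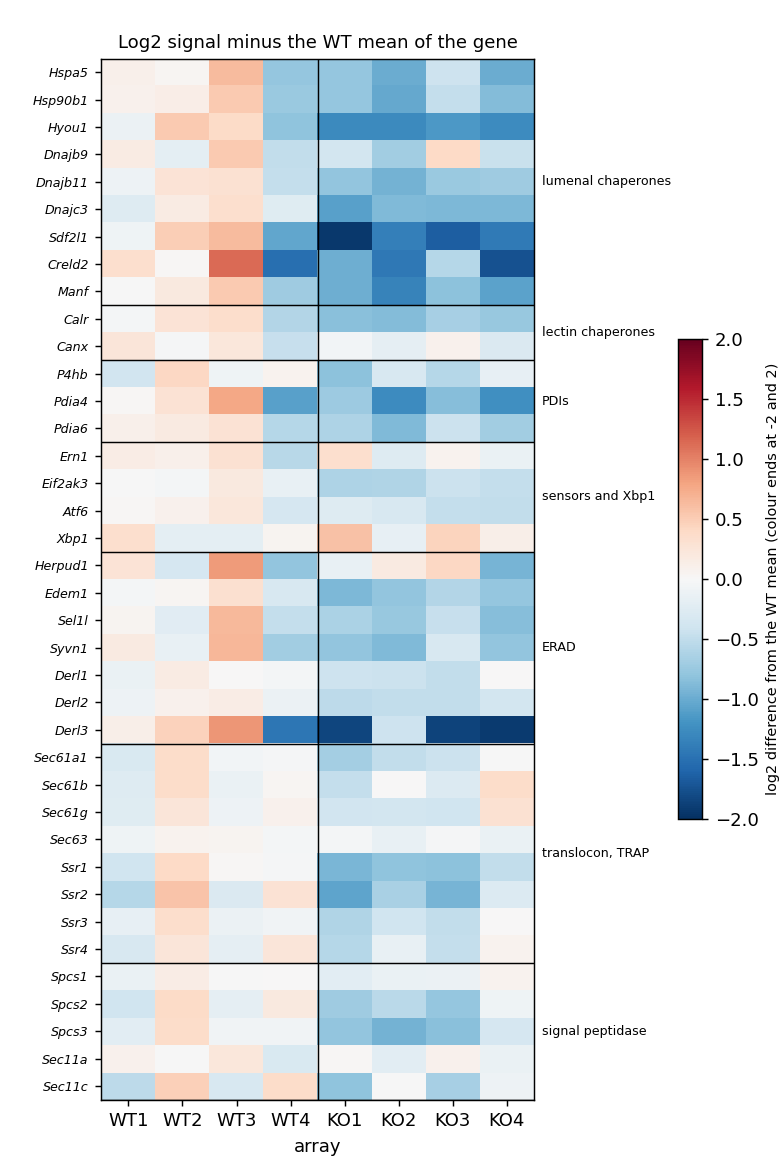
Log2 signal of each of the 38 members (rows, grouped by role) on each array (columns), minus the mean of the 4 WT arrays; blue is lower and red higher than the WT mean. WT4 is blue across the lumenal chaperones and most ERAD genes, and KO4 is near or above 0 in several translocon and TRAP genes.

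The mean log2 signal of the 9 lumenal chaperones was 13.76, 13.93, 14.30 and 12.99 on the WT arrays and 12.75, 12.64, 13.04 and 12.70 on the KO arrays. WT replicate 4 therefore lay within the KO range, and the other WT arrays above it. The mean of the 8 translocon and TRAP genes was 14.23, 14.85, 14.43 and 14.59 on the WT arrays and 13.94, 14.14, 14.04 and 14.51 on the KO arrays. Here it was KO replicate 4 that lay within the WT range. Over all 38 members the WT arrays had 13.21, 13.46, 13.53 and 12.93 and the KO arrays 12.64, 12.67, 12.78 and 12.76, with no overlap. The SD between arrays was larger in WT than in KO glands for 28 of the 38 members, among them 8 of the 9 lumenal chaperones. By pairs of the same number, 25 members were lower in the KO gland in 4 of 4 pairs and 11 in 3 of 4. In the pair of replicates 4, 27 of 38 members were lower, against 35, 36 and 37 in the pairs of replicates 1, 2 and 3.

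**Figure D5:**
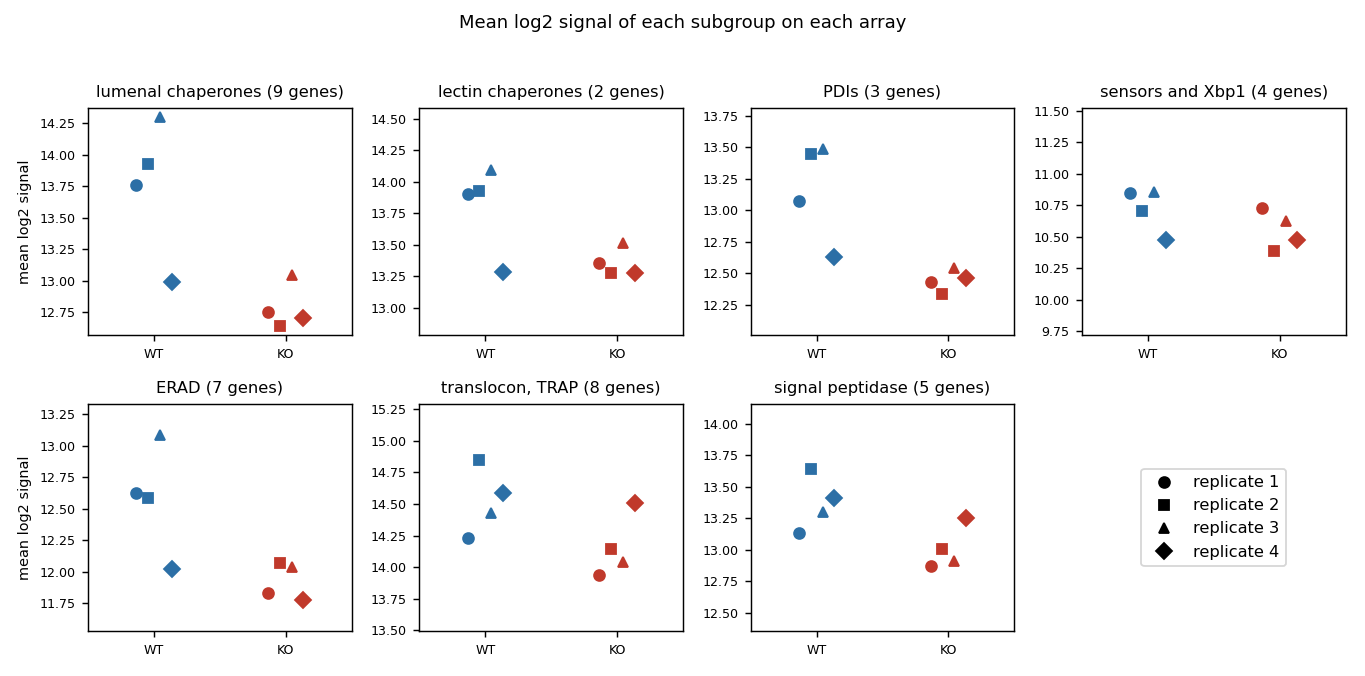
Mean log2 signal of each role on each array (vertical axes span the same number of log2 units); symbols give the replicate number. For the lumenal chaperones WT replicate 4 (12.99) lies with the KO arrays, and for the translocon and TRAP genes KO replicate 4 (14.51) lies with the WT arrays.

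Beyond the members, 76 other genes of the pathway in 9 lists were tested. In the KO glands 59 of them were lower and 17 higher, with a median log2 difference of -0.26. By the test, 14 were lower and 1 was higher, where 8.94% and 7.53% of all genes tested were. The count of 14 became 3 without WT replicate 2, 4 without WT replicate 3, 8 without KO replicate 2 and 2 without KO replicate 1 or KO replicate 3. In these fits the share of all genes called lower was also small, between 1.74% and 3.61%. Ero1b, an oxidase that regenerates the disulfide isomerases and is known from secretory cells, had the smallest adjusted p. It gave 9.996, 10.65, 10.71 and 10.05 in WT glands and 8.99, 9.06, 9.05 and 9.07 in KO glands. The KO arrays were closely grouped and all below the WT arrays. Ero1b differed by -1.31 ± 0.18 (standard error, adjusted p = 0.00738) and was called under all 15 alternatives. Ero1b and Stt3a were the only ones of the 15 called genes that kept their call under all alternatives, and the other 13 each lost it without at least 1 array.

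In the list of other oxidative folding genes 9 of 10 were lower and 3 were called, among them Txndc11, a thioredoxin-domain protein (-0.54, adjusted p = 0.0196). All 8 genes of the signal recognition particle and its receptor, which bring ribosomes to the membrane, were lower and 2 were called, Srp68 (-0.65, adjusted p = 0.0185) and Srprb (-0.81, adjusted p = 0.0475). Of 10 oligosaccharyltransferase genes 9 were lower, and both catalytic subunits were called, Stt3a (-0.68, adjusted p = 0.0139) and Stt3b (-0.37, adjusted p = 0.0469, or 0.0569 with the block). Of 10 genes of glycan trimming 9 were lower and 1 was called, Edem2 (-0.76, adjusted p = 0.0202). Of the 5 other translocation factors 4 were lower, 0 were called by limma and 0 had an unadjusted p under 0.05.

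Among the other ERAD factors 7 of 11 were lower, with 2 called, Selenos (-0.70, adjusted p = 0.0202) and Ubxn4 (-0.39, adjusted p = 0.0430). With the mean of its probes Ubxn4 differed by -0.18 (adjusted p = 0.234), and it was not called with the deposited log2 table (adjusted p = 0.0501) or no filter (adjusted p = 0.0554). In the list of other chaperones and prolyl isomerases Hspa13, a relative of BiP, was called lower (-0.63, adjusted p = 0.0262). Cnpy2, a saposin-like protein of the ER, was the 1 gene called higher (0.60, adjusted p = 0.0386), and was not called with scaling to the 75th percentile or without the filter. Of the 4 membrane-bound factors related to Atf6, 3 were lower and 1 higher, while both proteases that cut Atf6 in the Golgi were higher and not called. The called factors were Creb3l1 (-0.88, adjusted p = 0.0183) and Atf6b (-0.67, adjusted p = 0.0348, or 0.0656 with the block).

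The PERK arm showed no common direction, with 3 genes lower and 3 higher. Eif2s1, which encodes the translation factor that PERK phosphorylates, was called lower (-0.59, adjusted p = 0.0307). Its downstream factor Atf4 differed by -0.25 (adjusted p = 0.260) and Ddit3, which encodes CHOP, by 0.24 (adjusted p = 0.598). Trib3 differed by 0.49 (adjusted p = 0.174) and was higher in 4 of 4 pairs. The phosphatase subunits Ppp1r15a and Ppp1r15b differed by 0.26 (adjusted p = 0.128) and -0.41 (adjusted p = 0.0742).

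Markers of the cells in the gland were set beside these values, as the sum of linear signals over each list. Such a sum mostly follows the brightest genes of its list. The 5 milk protein genes, which define secretory alveoli, summed to between 882280 and 959922 on WT arrays and between 911189 and 1014870 on KO arrays. Of them, 0 of 5 were called by limma or had an unadjusted p under 0.05. Quantile normalization gives equal ranks on different arrays the same value. Wap, the brightest, was at 18.475 on KO replicates 1, 3 and 4, and at 18.4426 on WT replicates 2 and 3. A difference in genes this bright could hardly appear, so the lack of a call says little of them. Csn3 and Lalba, which were less bright, differed by -0.03 and -0.45 (adjusted p = 0.941 and 0.196). The 8 luminal epithelial markers summed to between 214439 and 262851 in WT and between 270954 and 312368 in KO glands, with no overlap. Most of this sum was Krt18, Krt8 and Elf5. Their mean log2 signals were 16.23, 15.45 and 16.30 in WT and 16.90, 15.91 and 15.95 in KO glands. The luminal sum thus says little of the other luminal markers. By the test, 4 of the 8 were called higher (Krt18, Epcam, Cldn3 and Cdh1). Cdh1 was called under all 15 alternatives. Epcam was not called with the block (adjusted p = 0.0598), no filter (adjusted p = 0.0571) or the plain test of the methods (adjusted p = 0.0650). It also lost its call when most single arrays were left out (adjusted p up to 0.106). Cldn3 was not called with the plain test (adjusted p = 0.0590) or without KO replicate 1, 2 or 3 (adjusted p up to 0.0727). Krt18 was not called with 75th percentile scaling (adjusted p = 0.0627), the deposited log2 table (adjusted p = 0.0619) or no filter (adjusted p = 0.0519). Krt18 also lost its call with the plain test (adjusted p = 0.0663) and when some single arrays were left out. The plain test called 1 of the 8 luminal markers. Other luminal markers had lower means in the KO glands, Elf5 by -0.35 (adjusted p = 0.107, or 0.0343 with 75th percentile scaling, lower in 4 of 4 pairs) and Prlr by -0.20 (adjusted p = 0.473). The 7 neutrophil markers summed to between 67312 and 100717 in WT and between 169401 and 270913 in KO glands, with 3 called higher, Ltf, Ngp and Camp. Most of this sum was Ltf, with log2 signals from 16.00 to 16.56 on WT and from 17.30 to 17.94 on KO arrays. S100a9, the next brightest by its KO mean, had means of 10.61 in WT and 12.81 in KO glands (adjusted p = 0.0566). The sum thus follows Ltf and says little of the other markers. Ngp and Camp were well above background on 0 of 4 WT arrays and entered the test through the KO arrays alone. On those same WT arrays Ltf was bright, so its signal cannot be read as a measure of neutrophils. Adipocyte markers had 2 of 8 called higher (301571 to 424933 in WT, 418520 to 597662 in KO glands), and basal epithelial markers 1 of 8 lower (93354 to 141549 and 83950 to 125317). Fibroblast markers had 1 of 6 called higher (174139 to 219671 and 214879 to 319076), and T cell markers 1 of 5 lower (544 to 1486 and 583 to 777). Plasma cell and B cell markers, which mark other secretory cells with many ER genes, summed to between 3033 and 5974 in WT and between 3961 and 5858 in KO glands, with 1 of 9 called higher (Cd79b, adjusted p = 0.0744 with the block). Cd79a, its partner in the B cell receptor, differed by -0.72 (adjusted p = 0.0511, or 0.0272 with 75th percentile scaling), with all KO arrays below all WT arrays, and by -0.13 with normexp. It was well above background on 4 WT arrays and 1 KO array. Macrophage markers had 0 called by limma and 0 at an unadjusted p under 0.05 (14831 to 77155 and 28361 to 120929). Most of their sum was Cd14, with log2 signals from 13.31 to 16.14 on WT and from 14.59 to 16.81 on KO arrays. Endothelial markers had 0 called by limma and 1 at an unadjusted p under 0.05 (8625 to 9007 and 7490 to 9355). Apart from Ngp, Camp, Cd79a and Cd4, every marker on the array was well above background on all 8 arrays, and Cd4 did not enter the test. The part of these lists in the results for the ER genes was not tested.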

How the data were processed

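Signals came from 8 one-colour Agilent arrays, 4 WT and 4 KO, 1 dam per array. The sample titles gave genotype and replicate number. The authors deposited the scanner intensities of each array, background-subtracted and detrended within the array by Feature Extraction 10.7 (submitters' processing notes), and a table of log2 values that they had quantile-normalized, used only as an alternative. The array header names build mm9; promoter coordinates are those of RefSeq on GRCm38.p6.

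After control spots were removed, the log2 of each processed intensity was taken and quantile normalization was run between arrays (limma 3.58.1, R 4.3.3). Spots marked as outliers (64 to 100 per array) were dropped, and remaining spots of one probe were averaged, giving 41174 probes, of which 27479 matched a symbol by accession. Probes were kept that the software flagged as well above background on 4 of 4 arrays of either genotype, and the brightest kept probe stood for a gene. Genotypes were compared with limma over all 14135 genes with Benjamini-Hochberg adjustment, after the fit had been tested on simulated data. Fold changes and intervals (95%) come from this fit.

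Members and lists were chosen with earlier results of these data known. Values per array are given for called members, the largest difference of each role, and Hspa5, Hsp90b1, Xbp1, Atf6, Ern1, Eif2ak3 and Sec61a1. Of the other lists, up to 2 called genes with the smallest p are named, and the PERK arm in full. These genes are given by their log2 differences, and Ero1b also by its values per array. The PERK arm genes beyond that rule and the marker genes were named after their values were seen.

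The labels number the arrays 1 to 4 in both genotypes. Deviations from the genotype means correlated within same-numbered pairs at r = 0.22, 0.16, 0.30 and 0.28 (across genes, which are not independent). The mean for different numbers was -0.079. Deviations cancel within a genotype, so a positive mean for same numbers forces a negative one for different numbers. The contrast of these means therefore adds no evidence of pairing. For the block and the counts by pairs, the numbers were taken to pair the samples, which is an assumption. Nothing says more about what a number shares. The alternatives were scaling to the 75th percentile, normexp on median signals, no filter, the deposited log2 table, the mean of probes, the replicate block, the t-test of the methods and leaving out each array.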

Additional observations from a re-analysis of the deposited data

Results flagged for a closer look

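Of 156 groups of 4 arrays examined (each gene named and each mean of a role, in each genotype), 7 held a value far from the other 3; chance alone gives about 1 in 20. Derl3 on KO replicate 2 had a log2 signal of 12.29, against 10.78 to 10.87 on the other KO arrays. Dnajc3 on KO replicate 1 was low, at 12.71 against 12.89 to 12.91. On KO replicate 4, Derl1 was high at 12.45 (others 11.96 to 12.03) and Sec61g at 16.29 (others 15.58 to 15.60), while Krt18 was low at 16.58 (others 16.99 to 17.02). Stt3a on WT replicate 2 was high, at 10.07 against 9.71 to 9.73. Ngp on WT replicate 2 was at 3.78, against 1.93 to 2.21 on the other WT arrays; no WT array measured it well above background. The causes were not tested.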

How the results depend on the processing

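The counts of calls, the medians of the roles and the log2 differences of the members, of the other pathway genes named and of the markers named were computed under 15 alternatives, 8 of them leaving out 1 array. Marker sums, the order of the arrays, the values by motif and markers given only as counts were not. The normexp correction used median spot signals, since the mean signals that had been planned are not used here, a choice made after seeing the data. The slide could not be fitted as a block, because each genotype lay on a slide of its own. Members called lower numbered 11 in the main comparison, 21 with the replicate block, 4 with the t-test of the methods (17 before adjustment) and between 2 and 20 when 1 array was left out; 11 of the 11 were among the 21. Other pathway genes called higher numbered 1, but 0 with 75th percentile scaling, without the filter and with the t-test, 2 with normexp, and between 0 and 1 when an array was left out. Those called lower numbered 14, 9 without the filter and between 2 and 19 when an array was left out. Over all genes the t-test called 593 higher and 796 lower, and leaving out an array gave 269 to 1390 higher and 248 to 1690 lower. The median log2 differences of the 7 roles and of all members moved by less than the spread between arrays under every alternative. Some members with small differences changed sign. Ern1 was at -0.016 with normexp and between -0.18 and 0.11 when an array was left out; Sec61b lay between -0.25 and 0.035, Herpud1 between -0.38 and 0.17 and Sec11a between -0.16 and 0.028 when an array was left out. The cause of these changes was not tested. With 4 arrays a genotype, the loss of a call when an array is left out also reflects that fewer samples were fitted.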
